A study of Mus musculus with 69 samples.

Results

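The genes described here are 49 chromatin regulators: enzymes that write or erase marks on histones, ATP-driven remodelers that move nucleosomes, and proteins linked to them. They were chosen by name, and all 49 were found among the 17634 genes of the deposited table by matching the Ensembl gene identifier to its symbol. They comprise 6 genes of the H3K4 methyltransferase family (KMT2 and SETD1), 4 H3K36 methyltransferases and related SET proteins, and 2 H3K9 methyltransferases. There are also 7 histone demethylases, 9 CHD remodelers, 6 BAF and PBAF subunits, and 4 remodelers of the INO80 family or linked to ISWI. The rest are 3 acetyltransferases or their adaptor, 4 deacetylases or corepressors, the 5-methylcytosine dioxygenase Tet3, and 3 Polycomb-linked or zinc finger proteins.

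The libraries hold ribosome-bound mRNA purified by RiboTag, in which a Cre recombinase switches on an HA-tagged ribosomal protein (Rpl22) so that ribosomes of Cre-expressing cells can be pulled down with an antibody. Every animal carried the tagged allele with one of 2 drivers: PV-Cre-Rpl22HA/HA mice, for parvalbumin (PV) interneurons, or Camk2a-Cre-Rpl22HA/HA mice, for cells that express Camk2a, in cortex mostly excitatory neurons. Mice of both lines were wild type (WT) or Fmr1 knockout (KO), a mouse model of fragile X syndrome that lacks the RNA-binding protein FMRP. Animals were 70 to 100 days old, and primary visual cortex (V1) and primary somatosensory cortex (S1) were dissected from each, giving 69 libraries from 37 animals. PV libraries numbered 10 WT and 10 KO in each area, with 5 females and 5 males in each group. Camk2a libraries numbered 8 WT (6 females and 2 males) and 6 KO (4 females and 2 males) in V1, and 8 WT (6 females and 2 males) and 7 KO (4 females and 3 males) in S1. For the genotype comparisons the counts of V1 and S1 were summed in the 32 animals that had both, 10 WT and 9 KO for PV and 7 WT and 6 KO for Camk2a, so that each animal counted once. Beads collected with the Cre driver can also hold RNA from other cells, and in such bulk samples fewer cells of a type and less RNA per cell cannot be told apart. The p-values measure the spread between animals.

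Histone methylation at H3K4 and acetylation mark active promoters and enhancers, methylation at H3K36 marks transcribed gene bodies, and methylation at H3K9 and H3K27 goes with silencing. Remodelers of the CHD, BAF, INO80 and ISWI families use ATP to slide, evict or exchange nucleosomes. Many of these genes are large, are expressed throughout the brain and are known as causes of intellectual disability or autism when 1 copy is lost, and several of their mRNAs have been listed as FMRP-bound.

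Library totals ran from 27640000 to 49110000 estimated counts (median 38770000). Fmr1 mRNA, the check of the genotype, was at 45.0 ± 3.35 CPM (counts scaled to a common library total of 1000000; SD, n = 10) in WT and 10.7 ± 1.51 (n = 9) in KO PV animals, and at 78.3 ± 4.87 (n = 7) and 8.25 ± 1.15 (n = 6) in Camk2a animals, with no overlap. The group medians of 9 summed PV interneuron markers were 10200 to 11500 CPM in PV libraries and 296 to 408 CPM in Camk2a libraries, and those of 9 excitatory markers were 1350 to 1660 and 12600 to 13900 CPM. Camk2a animals C18 and C19 (both WT) and C3 (KO) stood apart, with PV marker sums of 1730, 1790 and 1330 CPM in S1. In V1 these sums were 1320, 1390 and 706 CPM. In 3 animals (6 libraries) Y-linked reads went against the labelled sex: the PV KO P11 and the Camk2a WT animals C16 and C23. One library, the S1 sample of the Camk2a WT animal C24, was labelled batch 2 and the other 68 batch 1, so batch 2 allows no within-batch value. Results that rest on these animals are given with and without them.

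The members were long genes with CpG-rich promoters. Their exon union had a median of 8.51 kb (3.07 to 19.8 kb), against 3.15 kb over all named genes. RefSeq promoters (GRCm38.p6; the 250 bases before the start) were found for 36 of the 49 members. A GC box, GGGCGG or its reverse CCGCCC, was present at any listed start in 31 of these 36 (86.1%), against 35.4% of 27025 genes in the same table, and the TATA box TATAAA (or its reverse, TTTATA) was present in 0 of 36 against 14.3%. The median GC content was 67.6% in members and 52% in all promoters, and the median number of CG pairs was 21 against 6. These matches describe the letters of the window only. The windows below belong to a member that turned on each comparison: Setd2 on genotype, Chd6 on cell class and Adnp on area. Each is read 5′ to 3′ on the gene's strand, none overlaps an exon annotated in GENCODE M21, and capitals mark GC boxes on either strand, of which Setd2 had 7 (overlapping ones counted), Chd6 had 1 and Adnp had 1.
Setd2, chr9:110532347-110532596, plus strand: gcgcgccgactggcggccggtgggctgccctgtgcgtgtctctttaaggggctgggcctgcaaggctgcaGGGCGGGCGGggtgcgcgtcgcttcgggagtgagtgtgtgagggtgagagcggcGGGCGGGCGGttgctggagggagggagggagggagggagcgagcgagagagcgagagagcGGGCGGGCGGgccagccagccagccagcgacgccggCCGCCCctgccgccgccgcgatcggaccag
Chd6, chr2:161109087-161109336, minus strand: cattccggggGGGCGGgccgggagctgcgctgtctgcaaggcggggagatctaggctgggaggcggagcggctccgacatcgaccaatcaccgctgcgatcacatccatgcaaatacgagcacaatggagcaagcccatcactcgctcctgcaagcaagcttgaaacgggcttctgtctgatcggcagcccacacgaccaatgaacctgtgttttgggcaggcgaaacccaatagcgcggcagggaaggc
Adnp, chr2:168207113-168207362, minus strand: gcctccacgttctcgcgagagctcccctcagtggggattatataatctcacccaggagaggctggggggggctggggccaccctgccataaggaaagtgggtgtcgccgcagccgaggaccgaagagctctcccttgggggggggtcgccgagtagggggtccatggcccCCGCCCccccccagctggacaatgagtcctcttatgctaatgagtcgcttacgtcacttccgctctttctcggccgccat

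All 49 members were expressed in every group, and all passed the filter on low counts in every comparison. The median member was at 67.9 to 93.1 CPM across the 8 groups, against 10.4 to 11.4 CPM for the median gene. Compared per kb of exon, Smarcc2 (a core BAF subunit) led in all 4 PV groups and in both Camk2a S1 groups at 78 to 92.6 CPM per kb, and Chd3 (a NuRD remodeler) led in Camk2a V1 with 83.9 in WT and 99.1 in KO. Ehmt2, an H3K9 methyltransferase, and the neuronal remodeler Chd5 were among the 5 highest per kb in each of the 8 groups. Chd7 was the lowest per kb in every group, at 0.286 to 0.663 CPM per kb. The spread within groups was small for most members, with median coefficients of variation of 7.64 to 11.8% over the groups. Kmt2a in PV V1 of WT mice was the most variable, at 46.5%.

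In Camk2a ribosomes, Setd2 and Kdm4b rose in Fmr1 KO mice, and most other members had small positive differences that did not pass the test. In animals summed over areas, 40 of 49 members had a positive log2 fold change and 9 a negative one, with a median of 0.14 and a range of -0.63 to 0.44, whereas 51% of all genes tested were positive, with a median of 0.004. No member was called lower. edgeR's quasi-likelihood test with Benjamini-Hochberg adjustment called 2 members, both higher. Of all genes, 4.11% were called in either direction, a share near that of the members, and 2.05% were called higher. At an unadjusted p under 0.05, 18 members were higher and 2 lower, against 12% and 11% of all genes. The number of calls turned on single animals: it was 1 without C7, C15, C16 or C23, 3 without C14, 7 without C24 (8.06% of all genes called) and 8 without C6. It was 0 without C3, C18 and C19 (0.783% of all genes) and 0 without C16 and C23 (0.53%). DESeq2 called 9 members, against 10.3% of all genes (5.05% called higher).

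**Figure D1:**
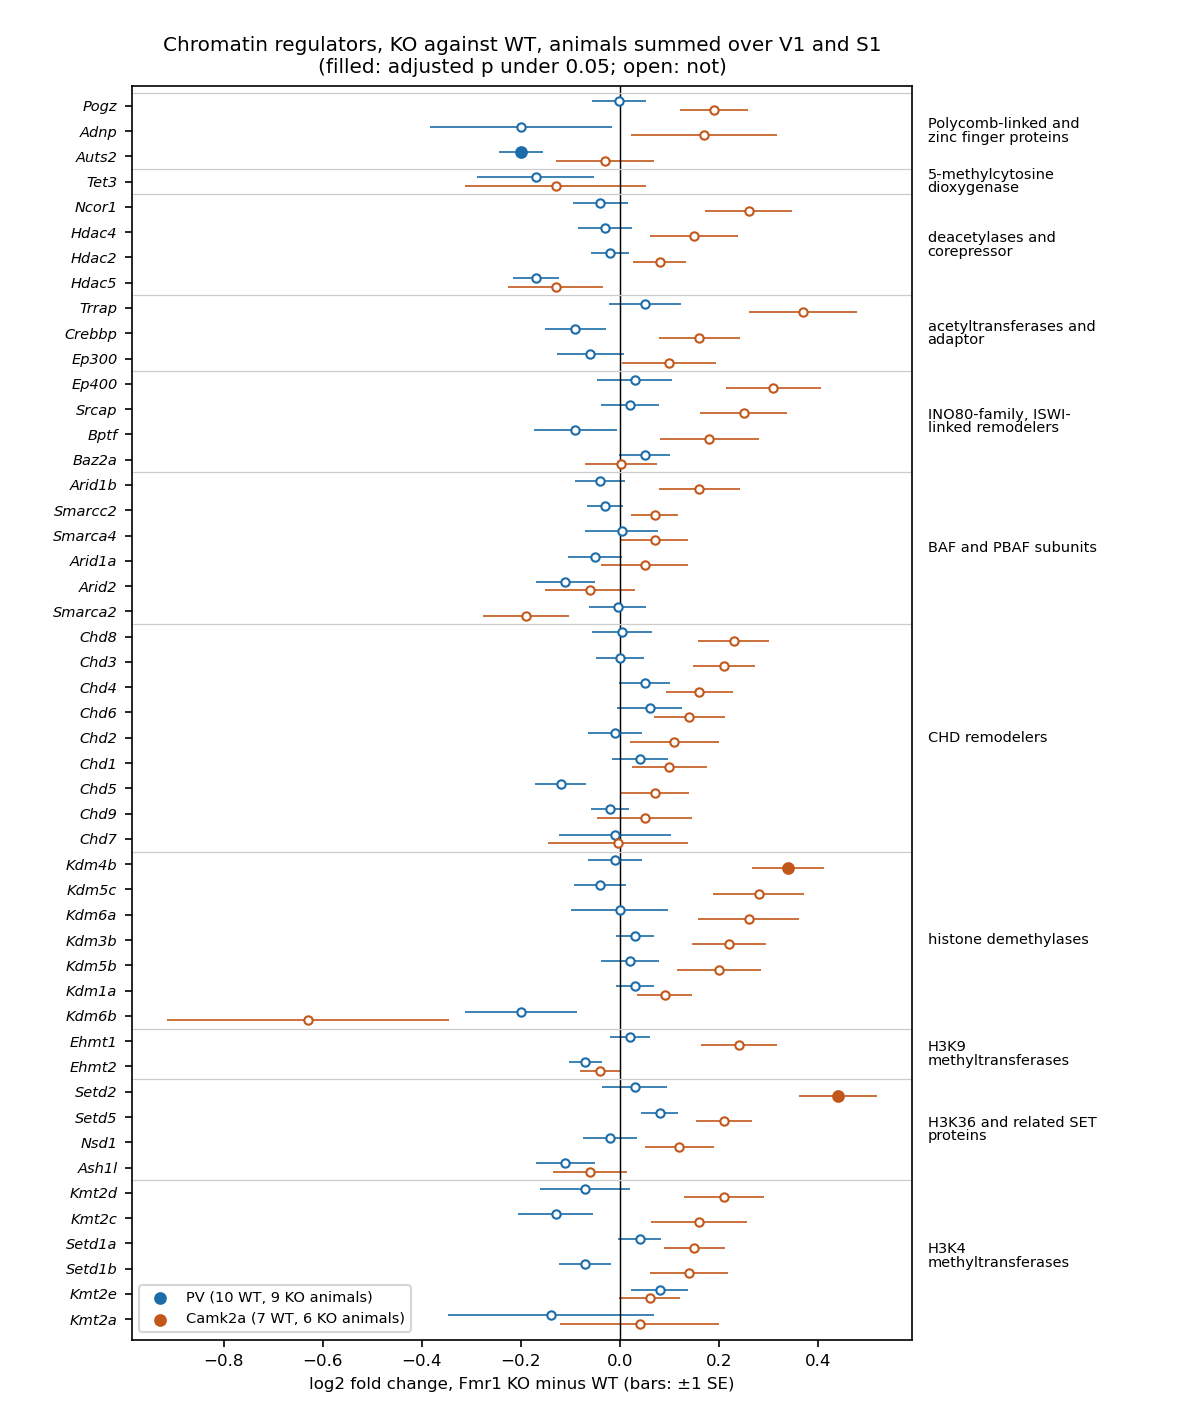
Log2 fold change (KO minus WT, horizontal axis, bars ± 1 SE) of each of the 49 members in animals summed over V1 and S1, ordered by role. PV values (10 WT, 9 KO animals) spread from -0.20 to 0.08 and Camk2a values (7 WT, 6 KO animals) from -0.63 to 0.44; filled points passed the threshold of 0.05 on the adjusted p.

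By role, the signs of the Camk2a values, most of which did not pass the test, were as follows. All 6 genes of the H3K4 methyltransferase family had positive values (median 0.14). So did all 4 INO80-family or ISWI-linked remodelers (median 0.21) and the 3 acetyltransferases or adaptor (median 0.16). Of the demethylases 6 of 7 were positive (median 0.22), of the CHD remodelers 8 of 9 (median 0.11), of the H3K36 and related SET proteins 3 of 4 (median 0.17), of the deacetylases and corepressor 3 of 4 (median 0.11), and of the BAF and PBAF subunits 4 of 6 (median 0.06). Tet3, the only DNA demethylation enzyme among the members, had a value of -0.13. The largest negative value was that of the H3K27 demethylase Kdm6b, -0.63 (SE 0.284, adjusted p = 0.217), with 24.0 ± 9.32 CPM in KO (n = 6) and 37.4 ± 12.0 in WT (n = 7). Smarca2, a BAF ATPase, followed at -0.19 (adjusted p = 0.194), and Hdac5, a class IIa deacetylase, stood at -0.13. None of these 3 passed the threshold.

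Setd2, the methyltransferase that places H3K36 trimethylation along transcribed genes (chr9:110532597-110618633, plus strand, GRCm38), had the largest rise. Among Camk2a animals its lowest, median and highest levels were 52.7, 58.1 and 64.9 CPM in WT and 69.4, 79.1 and 86.8 CPM in KO. Every KO animal was above every WT animal. The log2 fold change was 0.44 (SE 0.0783, adjusted p = 0.00989). The call held in 13 of 13 fits that each left out 1 animal (adjusted p 0.00634 to 0.0322). It was lost without C3, C18 and C19, the Camk2a animals richest in PV markers (adjusted p = 0.0581), and without the animals C16 and C23 of mismatched sex (log2 fold change 0.39, adjusted p = 0.0783).

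Kdm4b, a demethylase of H3K9 and H3K36 (chr17:56326062-56402870, plus strand), was the other call. Its lowest, median and highest levels were 43.8, 49.7 and 55.9 CPM in WT and 57.7, 62.1 and 68.1 CPM in KO, again without overlap. The log2 fold change was 0.34 (SE 0.0726, adjusted p = 0.0228). The call was lost without C15 (0.052), C16 (0.059), C23 (0.0522) or C7 (0.0629), and without C16 and C23 together the log2 fold change was 0.28 (adjusted p = 0.138). It was also lost without C3, C18 and C19 (0.0963) and with a glial score in the fit (0.0501). The remaining member whose groups did not overlap was Ehmt1, the H3K9 methyltransferase paired with Ehmt2, at 36.0 ± 3.98 CPM in KO and 30.6 ± 1.30 in WT, with a log2 fold change of 0.24 and an adjusted p of 0.0807; it was singled out after its values were seen. Groups with every KO animal above every WT animal were found in 3 members, against 1.21% of all genes.

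Next by p were Setd5 and Trrap. Setd5, a SET protein and intellectual disability gene, was at 126 ± 6.32 CPM in KO and 110 ± 8.79 in WT (log2 fold change 0.21, SE 0.0571, adjusted p = 0.0511), and it was called without C24 (0.0178) or C6 (0.0483). Trrap, the scaffold that brings acetyltransferases to activators, was at 108 ± 12.0 and 83.3 ± 11.5 CPM (log2 fold change 0.37, adjusted p = 0.0648). The fold changes of Chd3 (0.21), Ep400 (0.31, an INO80-family ATPase) and Kdm5c (0.28, an X-linked H3K4 demethylase) were also positive, and none of these passed the threshold. Auts2, a Polycomb-linked gene, did not differ detectably in Camk2a animals (log2 fold change -0.03, 113 ± 14.3 CPM in KO and 115 ± 14 in WT).

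**Figure D2:**
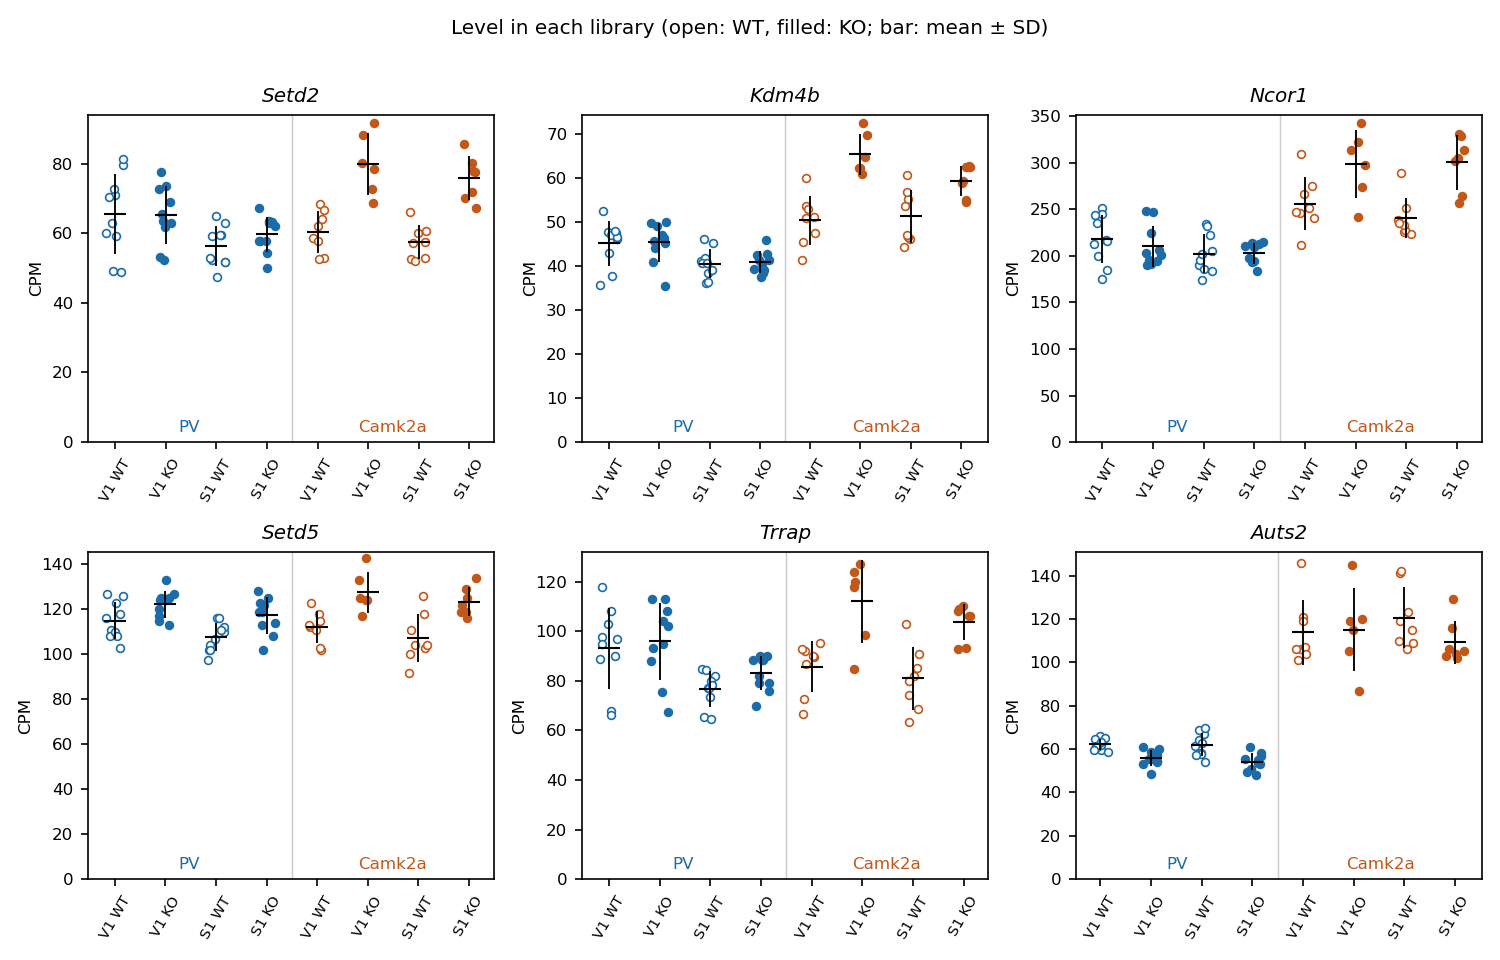
CPM (vertical axis, from 0) of the 6 members called in a genotype comparison, 1 point per library by class, area and genotype, with the mean ± SD. Setd2 reaches 67.3 CPM or more in every Camk2a KO library and 68.5 CPM or less in every Camk2a WT library, and Auts2 is lower in PV than in Camk2a libraries.

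In single areas the signs were much the same. In V1, 39 of 49 members had positive log2 fold changes in Camk2a libraries (median 0.11), and Setd2 and Kdm4b were called, against 1.4% of all genes (0.62% called higher). In S1, 41 of 49 were positive (median 0.16) and 4 were called, Setd2, Ncor1, Setd5 and Trrap, against 4.09% of all genes (1.99% called higher). Without C24, the animal with the batch 2 library, 13 were called in S1, against 10.5% of all genes in that fit (5.48% called higher). Without C15, C16 or C7 only Setd2 was called. V1 and S1 libraries come largely from the same animals and are no independent check of each other.

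Setd2 in V1 ran through 52.5, 60.3 and 68.5 CPM (lowest, median and highest) in WT and 68.6, 79.4 and 91.8 CPM in KO, and Kdm4b through 41.3, 51.0 and 59.9 CPM in WT and 60.9, 63.5 and 72.5 CPM in KO. For both genes all KO libraries were above all WT libraries, with a very narrow gap for Setd2; such groups were found in 0.733% of all genes. The log2 fold changes were 0.39 (SE 0.0881, adjusted p = 0.0422) and 0.36 (adjusted p = 0.0431). Each of these V1 calls held in 4 of 14 fits that left out 1 animal, and was lost without C3, C4, C5, C7, C15, C16, C18, C19, C20 or C23 (adjusted p 0.0524 to 0.122 for Setd2 and 0.059 to 0.12 for Kdm4b).

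In S1 the lowest, median and highest Setd2 levels were 51.9, 57.4 and 66.0 CPM in WT and 67.3, 77.5 and 85.6 CPM in KO, without overlap, a pattern found in 0.765% of all genes. The log2 fold change was 0.43 (SE 0.0702, adjusted p = 0.0037). This call held in 15 of 15 fits without 1 animal, without C3, C18 and C19 (0.0236), and without C16 and C23 (0.0385). Ncor1, a corepressor that recruits Hdac3, was at 223, 234 and 289 CPM in WT and 257, 305 and 331 CPM in KO, with 1 WT library, that of C24, inside the KO range. Its log2 fold change was 0.33 (SE 0.0763, adjusted p = 0.0248), and its call was lost without C15 (0.0696), C16 (0.0681) or C7 (0.0619).

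The remaining S1 calls were the least stable. Setd5 was at 91.8, 104 and 126 CPM in WT and 116, 122 and 134 CPM in KO, with overlapping groups (log2 fold change 0.24, adjusted p = 0.0383). It was lost without C2, C3, C5, C6, C7, C15, C16, C19, C20 or C23 (adjusted p 0.0529 to 0.112). Trrap was at 63.3, 81.1 and 103 CPM in WT and 92.8, 106 and 110 CPM in KO, also overlapping (log2 fold change 0.37, adjusted p = 0.0433). It held in 2 of 15 fits without 1 animal, those without C20 or C24, and otherwise had an adjusted p of 0.0515 to 0.117. Kdm4b in S1 had a log2 fold change of 0.24 (adjusted p = 0.101).

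The Camk2a fold changes moved with gene length over the whole table. The median over all genes rose in steps from -0.12 for exon lengths of up to 1 kb to 0.12 above 12 kb, with 0.05 from 6 to 8 kb and 0.08 from 8 to 12 kb, and Spearman's rho across 16724 genes was 0.23. Genes are not independent replicates, so this is a description. The members lie in the upper classes, with medians of 0.15 (12 members, 6 to 8 kb), 0.11 (19 members, 8 to 12 kb) and 0.18 (9 members, above 12 kb), and among the 49 members rho was 0.06. With length offsets in the fit, the members' median fell from 0.14 to 0.06 and the positive members from 40 to 34. The same fit called 7 members: Setd2, Kdm4b, Trrap, Chd8 and Setd5 higher, and Ash1l and Smarca2 lower. Of all genes it called 6.82%, with 3.13% called higher, against 4.11% and 2.05% in the main fit. In PV animals the trend was slight and ran the other way (rho -0.07 over 17135 genes). There 56.6% of genes of 1 to 2 kb were positive and 44.7% of those above 12 kb. Among the 49 members rho was -0.16 in summed PV animals, -0.33 in PV V1 and 0.15 in PV S1.

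**Figure D3:**
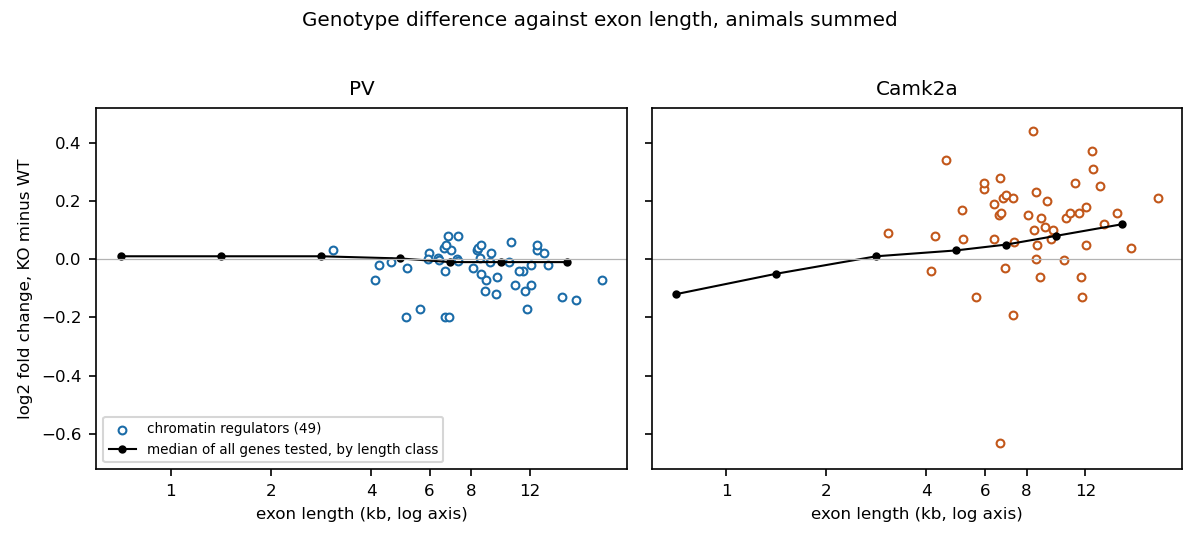
Log2 fold change (KO minus WT, vertical axis) against exon length (kb, log axis) for the 49 members (open circles) in PV and Camk2a animals, with the median of all genes tested in each length class (black line). The Camk2a line climbs from -0.12 to 0.12 and the PV line stays between -0.01 and 0.01.

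Oligodendrocyte mRNA also moved with genotype in the Camk2a libraries. The sum of 9 oligodendrocyte markers had medians of 350 (268 to 417) CPM in WT and 262 (215 to 332) CPM in KO in V1, and of 324 (288 to 473) and 238 (198 to 327) CPM in S1, with Mbp the largest contributor and none of the 9 at 0. Astrocyte marker sums had medians of 847 and 882 CPM in V1 and of 924 and 995 CPM in S1. Most of each sum was Slc1a2, with means of 729 (WT) and 791 (KO) CPM in V1 and 761 and 909 in S1. Aldoc was lower in KO (64.4 and 38.1 CPM in V1, 83.6 and 46.6 in S1), as were Aldh1l1 and S100b. The remaining astrocyte markers averaged 10.2 CPM or less, with differences in both directions. The part of oligodendrocyte and astrocyte mRNA in the members' differences was not tested beyond the fit with a glial score. In that fit 1 of the 2 summed calls, Setd2, was kept. The members' joint level in a library, the median over members of the deviation from the WT mean on the log2(CPM + 1) scale, ran from -0.073 to 0.273 in KO and from -0.107 to 0.096 in WT libraries of V1, and from 0.041 to 0.217 in KO and -0.11 to 0.205 in WT libraries of S1. The groups overlapped in both areas, and in both the highest WT library was that of C24 and the lowest KO library that of C6.

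In PV ribosomes the same genes lay close to 0. In summed animals 17 of 49 members had positive and 32 negative log2 fold changes, with a median of -0.02 and a range of -0.20 to 0.08, and the median of all genes was 0.01. Auts2 was the only call, against 1.36% of all genes (1.05% called lower). At an unadjusted p under 0.05, 1 member was higher and 3 were lower, against 5.86% and 6.05% of all genes. The count was 2 without P11 or P26 and 0 without P9. The 3 deacetylases, Ncor1 and the 3 Polycomb-linked and zinc finger proteins all had negative values, and 3 of the 4 INO80-family or ISWI-linked remodelers had positive ones.

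Auts2, which activates transcription as part of a Polycomb complex (chr5:131437333-132543344, minus strand), fell in PV animals of KO mice. Its lowest, median and highest levels were 56.7, 61.7 and 66.1 CPM in WT (mean 62.0 ± 2.82, n = 10) and 48.2, 55.4 and 59.1 CPM in KO (mean 54.9 ± 2.96, n = 9). The groups overlapped only between 56.7 and 59.1 CPM. The log2 fold change was -0.20 (SE 0.0436, adjusted p = 0.0202). The call was lost without the KO animal P9 (-0.17, adjusted p = 0.0502) and without P9, P22 and P24, left out because earlier results placed their V1 libraries with those of S1 (-0.18, adjusted p = 0.077). Without P11, the KO animal of mismatched sex, the adjusted p was 0.00795.

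Hdac5 was next in PV animals, at 217 ± 15.5 CPM in KO and 241 ± 14.7 in WT, with 9 of 9 KO animals below the WT mean (log2 fold change -0.17, SE 0.0462, adjusted p = 0.0696). It was called without P11 (0.0445) or P26 (0.0472), by DESeq2 (0.0251), with length offsets (0.0416) and with voom (0.00947), and its adjusted p was 0.377 without P9, P22 and P24. Chd5 (-0.12, adjusted p = 0.305), Setd5 (0.08, 0.366) and Kmt2e (0.08, 0.674) came after it. Setd2, the leading Camk2a gene, had a PV log2 fold change of 0.03 (adjusted p = 0.931).

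Neither area alone gave a PV call by edgeR. In V1 0 of 49 members passed, against 0.191% of all genes, with 0 higher and 3 lower at an unadjusted p under 0.05 (3.5% and 4.32% of all genes). DESeq2 called 1 there, Auts2, against 0.696% of all genes. The V1 levels of Auts2 were 62.1 ± 2.52 CPM in WT and 55.8 ± 3.66 in KO (log2 fold change -0.18, adjusted p = 0.106). In S1 0 passed, against 0.77%, with 2 higher and 3 lower at an unadjusted p under 0.05 (6.33% and 5.93%), and DESeq2 called 1, against 1.94% of all genes. The S1 levels of Auts2 were 62.0 ± 5.29 and 54.2 ± 4.01 CPM, with 10 of 10 KO libraries below the WT mean (log2 fold change -0.22, SE 0.0538, adjusted p = 0.0539). That S1 value crossed the threshold without P1 (0.033), P11 (0.0312), P22 (0.035) or P4 (0.049), without the sex term (0.0476) and with length offsets (0.013). Percent of counts from mitochondrially encoded genes differed between the PV groups as well, with medians of 3.84 in WT and 2.28 in KO in V1 and of 1.41 and 1.93 in S1, and their part in these values was not tested.

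The genotype effects of the 2 classes were compared directly in 1 fit over all 32 animals. The effect was more positive in Camk2a than in PV animals for 45 of 49 members (median difference 0.16), and for 47.4% of all genes tested (median -0.01). edgeR called 0 members, against 0.832% of all genes. At an unadjusted p under 0.05, 16 members were more positive in Camk2a and 0 in PV, against 5.73% and 6.91% of all genes. DESeq2 called 2, Setd2 and Kdm4b, against 1.52% of all genes. The largest differences by p were those of Setd2 (0.41, SE 0.107, adjusted p = 0.0602), Kdm4b (0.34, SE 0.0899, adjusted p = 0.0682) and Kdm5c (0.33, adjusted p = 0.169). For Auts2 the difference was 0.16 (adjusted p = 0.508), so its PV call is not shown to be particular to that class. With length offsets the median difference was 0.08 and 37 members were positive.

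A second list of 135 chromatin genes outside the 49 showed the wider family. In Camk2a summed animals 93 of 135 were positive (median 0.05), 5 rose and 2 fell, against 2.05% of all genes in each direction. Kdm4a, a close relative of Kdm4b with the same substrates, rose by 0.42 (adjusted p = 0.00991), Bcl7a, a BAF subunit, by 0.24 (0.0246) and Kdm4c, another KDM4 demethylase, by 0.28 (0.0294). Smarcd3, a BAF subunit, fell by 0.35 (adjusted p = 0.033) and Setd3, an actin histidine methyltransferase, fell by 0.15 (0.0473). All 5 of these calls were lost without C3, C18 and C19 (adjusted p 0.0581 for Kdm4a, 0.077 for Bcl7a, 0.0971 for Kdm4c, 0.089 for Smarcd3 and 0.216 for Setd3) and without C16 and C23 (0.0767, 0.139, 0.158, 0.149 and 0.19). The glial score ended the calls of Bcl7a (0.0501) and Kdm4c (0.0654), and length offsets that of Bcl7a (0.151). Kdm4a was called in 13 of 13 fits without 1 animal. Bcl7a was lost without C5, C7, C15, C16, C19 or C23 (adjusted p up to 0.0716), Kdm4c without C4, C7, C15, C16, C19 or C23 (up to 0.0854), and Smarcd3 and Setd3 were called in 3 of 13 such fits (up to 0.0898 and 0.107). In PV summed animals 73 of 135 were positive and 0 were called by edgeR, with 10 higher and 8 lower at an unadjusted p under 0.05 (5.86% and 6.05% of all genes). Bcl7a was also the 1 gene of the list whose genotype effect differed between classes (0.21, adjusted p = 0.0473, against 0.832% of all genes called), in 4 of 10 alternatives. It was lost without the low-count filter (0.056), with the glial score (0.0726), with length offsets (0.542), without C24 (0.0512), without P9, P22 and P24 (0.153) and without P11, C16 and C23 (0.178).

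Cell class separated the members far more than genotype did. Between PV and Camk2a libraries of WT mice, 33 of 49 members were called in each area, a share below the 77.3% of all genes called in V1 and 77.2% in S1. In V1, 14 were higher and 19 lower in PV (39.8% and 37.5% of all genes), and in S1, 10 were higher and 23 lower (39.1% and 38.1%). The areas shared 28 of these calls, 9 higher and 19 lower in PV in both and 0 in opposite directions; 5 were called in V1 only and 5 in S1 only, and 11 in neither, Setd2 and Trrap among them. The WT libraries of the 2 areas come largely from the same animals, and the sharing of calls was not counted over all genes. By role, the INO80-family and ISWI-linked remodelers lay on the PV side (4 of 4 positive in V1, median 0.27, and 3 of 4 in S1, median 0.19), and both H3K9 methyltransferases lay on the Camk2a side (medians -0.39 and -0.42). The CHD remodelers were divided, with 5 of 9 positive in either area, and the demethylases were mostly negative (3 of 7 positive in V1 and 2 of 7 in S1).

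Among the members higher in PV, the CHD remodelers Chd6 and Chd7, with Kmt2a in V1 and Adnp in S1, differed most. Chd6 was at 86.1, 115 and 134 CPM (lowest, median and highest) in PV and 49.0, 55.2 and 68.8 CPM in Camk2a libraries of V1, and at 100, 111 and 132 against 55.8, 58.8 and 69.4 CPM in S1. Every PV library was above every Camk2a library, with log2 fold changes of 0.93 (SE 0.0767, adjusted p = 9.78e-10) and 0.85 (SE 0.0632, adjusted p = 7.28e-11). How many of all genes separate the classes in this way was not counted, and 77.3% of them were called in V1 and 77.2% in S1. Chd7, the remodeler mutated in CHARGE syndrome, differed by 1.03 and 0.74 at low levels (6.87 ± 1.62 against 3.23 ± 0.638 CPM in V1). Adnp, a zinc finger protein that works with Chd4, was at 21.4 ± 5.98 CPM in PV and 8.56 ± 2.25 in Camk2a libraries of S1 (log2 fold change 1.23, adjusted p = 8.91e-06) and differed by 0.50 in V1 (adjusted p = 0.0171). Kmt2a, an H3K4 methyltransferase, differed by 0.92 in V1 (adjusted p = 0.00189) and by 0.35 in S1, where it was not called (adjusted p = 0.107). Chd5 (0.40 and 0.48), Hdac5 (0.40 and 0.55) and the INO80-family ATPase Srcap (0.42 and 0.30) were higher in PV in both areas. RNA of other cells also differed between the classes. In V1 of WT mice the median marker sums in PV and Camk2a libraries were 589 and 350 CPM for oligodendrocytes and 30.4 and 6.51 for their precursors. They were 49.7 and 17.4 CPM for microglia, and for astrocytes they went the other way (686 and 847). Mitochondrial reads had medians of 3.84% and 0.476%. The part of these in the class differences was not tested.

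Auts2, Chd9, Smarca2, Tet3 and Kdm6a had the largest differences on the Camk2a side in both areas. Auts2 was at 62.1 ± 2.52 CPM in PV and 114 ± 15.0 in Camk2a libraries of V1 and at 62.0 ± 5.29 and 121 ± 13.9 in S1 (log2 fold changes -0.96, SE 0.0674, and -1.01, SE 0.0739). For the CHD remodeler Chd9 the log2 fold changes were -0.84 in V1 and -0.97 in S1, and for Smarca2 they were -0.84 and -0.86. Tet3 was at 33.3 ± 4.20 CPM in PV and 68.4 ± 18.3 in Camk2a libraries of S1, a log2 fold change of -1.08 (SE 0.129), and had a value of -0.69 in V1, where the groups overlapped. Kdm6a, the X-linked H3K27 demethylase, had values of -0.63 and -0.77 at 9.10 to 17.3 CPM on average. Without P11, C16 and C23, 28 members were called in V1 and 30 in S1, against 73.3% and 73% of all genes.

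**Figure D4:**
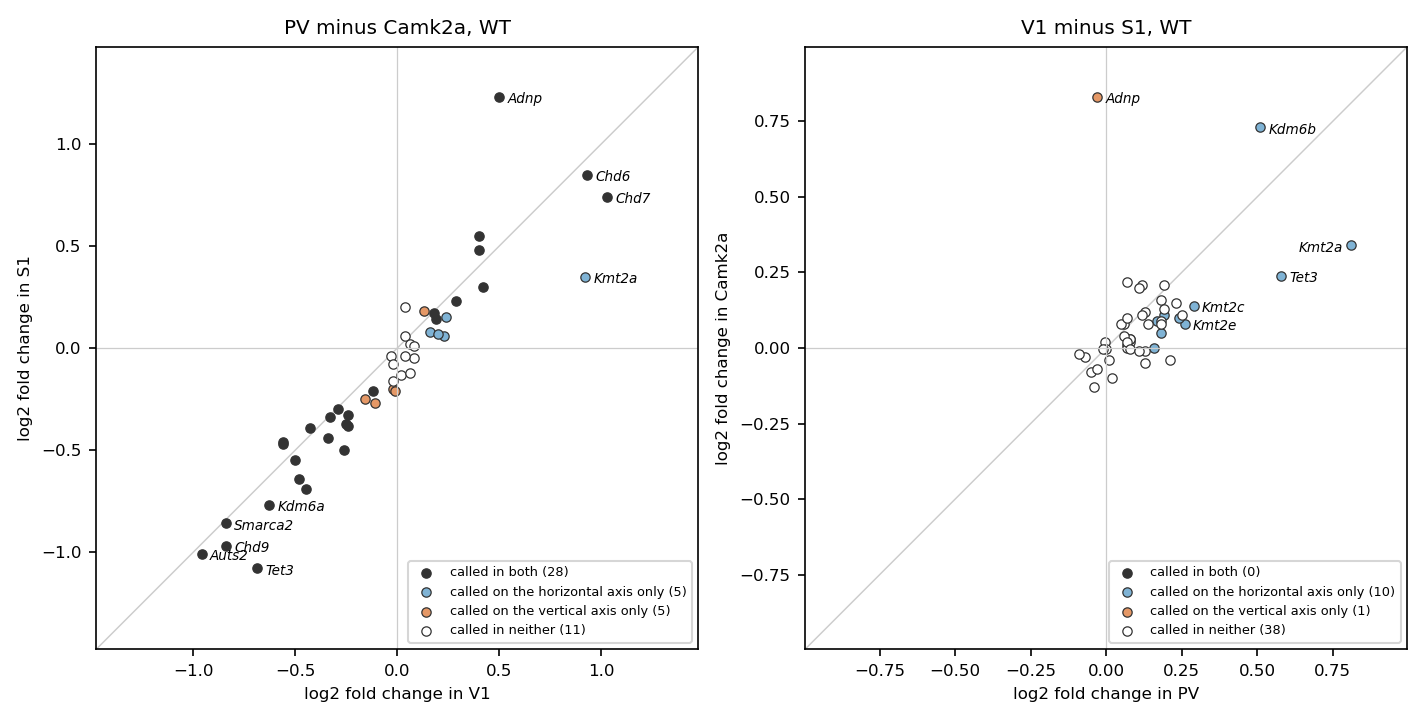
Left, log2 fold change of PV minus Camk2a in WT mice for the 49 members, V1 (horizontal) against S1 (vertical). Right, V1 minus S1 in WT mice, PV (horizontal) against Camk2a (vertical). Shading gives where a member passed the adjusted p threshold: 28 members in both areas on the left, and 10 in PV, 1 in Camk2a and 0 in both on the right.

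Between areas, 10 members were higher in V1 in PV libraries of WT mice. That share was near that of all genes called in either direction and above that of all genes called higher. Of 49 members 41 had positive log2 fold changes (median 0.11, against 0.01 over all genes), and the 10 calls were all higher in V1, against 20.6% of all genes called and 10.7% called higher. At an unadjusted p under 0.05, 19 were higher and 0 lower, against 19.2% and 17.8% of all genes, and DESeq2 called 13, against 24.9% of all genes (13.4% called higher). The 10 comprised Kmt2a, Kmt2c, Kmt2e and Setd1a of the H3K4 methyltransferase family and the demethylases Kdm6b and Kdm5b. They also held the acetyltransferase Ep300 with Trrap, the BAF subunit Arid1a, and Tet3. By role, all 6 genes of the H3K4 methyltransferase family (median 0.26) and all 3 acetyltransferases or adaptor (median 0.19) were positive. Of the 4 deacetylases and corepressor, 2 were positive (median 0.02). With the animal as a replicate block, 16 members were called higher, against 26.6% of all genes called and 12.6% called higher in that fit, adding Kmt2d, Arid2, Crebbp, Setd2 (0.18, adjusted p = 0.0306), Bptf and Setd1b.

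The 3 largest area differences rested on a wide spread in V1. Kmt2a was at 48.2, 107 and 195 CPM in V1 and 38.7, 63.0 and 74.6 CPM in S1 (log2 fold change 0.81, SE 0.223, adjusted p = 0.02). Tet3 was at 29.5, 49.6 and 74.8 CPM in V1 and 28.7, 33.1 and 40.7 CPM in S1 (0.58, SE 0.136, adjusted p = 0.00975), and Kdm6b at 30.4, 47.9 and 74.8 CPM against 28.7, 34.0 and 41.9 CPM (0.51, SE 0.127, adjusted p = 0.0117). In all 3 genes the S1 libraries were closer together than those of V1, and some V1 libraries lay among them. The coefficients of variation in S1 and V1 were 20.7% and 46.5% for Kmt2a, 12.6% and 30.5% for Tet3, and 12.7% and 27.5% for Kdm6b. Mitochondrial reads had medians of 3.84% in V1 and 1.41% in S1 of these mice and astrocyte marker sums of 686 (469 to 814) and 526 (463 to 601) CPM, and the fold changes of all genes also moved with exon length (rho 0.21 over 15948 genes, 0.45 among the 49 members); their part in the area differences was not tested. Without P9, P22 and P24, of which P22 is the WT animal, 14 members were called, against 31.6% of all genes. P22 was left out because earlier results placed its V1 library with those of S1. That choice by itself widens the area difference, so this fit is no check of it.

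In Camk2a libraries of WT mice, 35 of 49 members were positive (median 0.08) and 1 was called, Adnp, higher in V1, against 0.359% of all genes called and 0.256% called higher. Adnp was at 11.6, 14.1 and 18.8 CPM in V1 and 5.53, 8.42 and 12.4 CPM in S1, with 8 of 8 V1 libraries above the S1 mean and a small overlap (log2 fold change 0.83, SE 0.156, adjusted p = 0.0409). The call was lost with the animal as a replicate block (adjusted p = 0.127) and without C16 and C23 (0.435). In PV libraries Adnp did not differ detectably between areas (-0.03, SE 0.192). Of the other chromatin genes, 133 were tested in these comparisons. In V1, 32 were higher and 59 lower in PV than in Camk2a (39.8% and 37.5% of all genes), and in S1, 27 and 61 (39.1% and 38.1%). Between areas, 17 were higher in V1 of PV libraries, led by Phc1 (0.36), Tet2 (0.50) and Sirt1 (0.40), and 7 were lower, led by Smarcd3 (-0.16), Bcl7b (-0.19) and Kat2b (-0.24), where 20.6% of all genes were called and 10.7% called higher. By edgeR, 0 were called in Camk2a (19 higher and 13 lower at an unadjusted p under 0.05, against 11.3% and 11.6% of all genes). Whether the area effect differs between the classes was not tested.

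The X-linked demethylases Kdm5c and Kdm6a, which escape X inactivation, also varied with sex, given here as levels only. By labelled sex, Kdm5c in PV libraries averaged 75.7 ± 7.53 CPM in females and 59.9 ± 6.28 in males (20 libraries each, up to 2 per animal), and without the mismatched animal the female mean was 77.3 ± 6.12 (18 libraries). In Camk2a libraries without mismatched animals it was 76.4 ± 11.3 CPM in females (18 libraries) and 69.7 ± 8.46 in males (7 libraries), with wide overlap. Kdm6a in PV libraries was at 12.1 ± 2.40 CPM in females and 8.20 ± 1.71 in males.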

How the data were processed

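RiboTag RNA was sequenced in 69 libraries, 1 per animal and area. The deposited table holds estimated counts per gene made by the authors (71.1% of all values are not whole). Per the submitters' processing notes, STAR, Salmon, limma and mm10 were used; their versions and order, and whether counting used strand, are not given in the sources used here. Reads of close relatives, such as the Y-linked copies of Kdm5c and Kdm6a or the KDM4 genes, could be split by that counting.

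Estimated counts were rounded to whole numbers. Each comparison was fitted over all genes passing filterByExpr with edgeR 4.0.16 (R 4.3.3; TMM, robust quasi-likelihood, sex as covariate), called at a Benjamini-Hochberg adjusted p of 0.05. CPM are counts per 1000000 of the library total. V1 and S1 counts of an animal were summed for the genotype comparisons, and area comparisons left the animal out of the main model. V1 and S1 samples pair by animal. Alternatives were RLE factors, no low-count filter, DESeq2 1.42.0, limma 3.58.1 voom, no sex term, a glial score, length offsets, animals left out and the animal as a replicate block; leaving out P11, C16 and C23, and keeping library sizes from before the filter, were chosen after seeing the data. Exon lengths came from GENCODE M21 and promoters from RefSeq. The fitting code was tested on simulated data. The median library held 38770000 counts.

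Members and lists were chosen with earlier results of these data known. Named members are all called ones (up to 8 per direction), the 3 smallest p per direction where fewer than 3 were called, Setd2 and Auts2, up to 5 by fold per direction for class and area, and up to 3 per direction of the other list. Other names were added after values were seen.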

Additional observations from a re-analysis of the deposited data

Results flagged for a closer look

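In groups of 4 to 10 samples, 48 checks over 6 members (those called in a genotype comparison) looked for a library far from the rest of its group by Dixon's criterion, which chance meets in about 1 in 20 groups, and 2 met it. Both were libraries of the Camk2a WT animal C24. Auts2 in V1 was at 146 CPM, where the other 7 WT libraries lay between 101 and 121 CPM. Ncor1 in S1 was at 289 CPM, where the others lay between 223 and 251 CPM; this is the library labelled batch 2.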

How the results depend on the processing

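The members' median log2 fold change kept its sign in the Camk2a genotype comparisons under all alternatives run, from 0.08 (without C4) to 0.17 (without C6) in summed animals when 1 animal was left out, while the number of members called moved. In PV summed animals it was 1, and became 2 by DESeq2, with length offsets, with voom on separate libraries or without P11, and 0 without P9, P22 and P24 (0 to 2 when 1 animal was left out). In Camk2a summed animals it was 2, and became 9 by DESeq2, 4 without the sex term, 1 with the glial score, 7 with length offsets, 17 with voom, 7 without C24, 0 without C3, C18 and C19 and 0 without C16 and C23 (1 to 8 when 1 animal was left out). In PV V1 it was 0, and 1 by DESeq2 and with the glial score (0 to 0 when 1 was left out). In PV S1 it was 0, and 1 by DESeq2, without the sex term, with length offsets, without P11 and with library sizes from before the filter (0 to 1). In Camk2a V1 it was 2, and became 5 by DESeq2, 0 with the glial score, 6 with length offsets, 0 without C3, C18 and C19 and 0 without C16 and C23 (0 to 5). In Camk2a S1 it was 4, and became 10 by DESeq2, 2 with the glial score, 13 without C24, 1 without C3, C18 and C19 and 1 without C16 and C23 (1 to 13). For the difference of genotype effects it was 0, and became 1 with RLE factors and 2 by DESeq2, with the glial score, with length offsets and without C24. For area in Camk2a it was 1, and became 4 by DESeq2, 6 without C24, 0 without C3, C18 and C19, 0 without C16 and C23 and 0 with the animal as a replicate block. For area in PV it was 10, and 16 with the replicate block, in which V1 and S1 were paired by animal. The cause of these moves was not tested, except that leaving out animals shrinks the groups.

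The counts over all genes moved in the same settings. In PV summed animals 234 genes were called, and 469 by DESeq2, 384 with the glial score, 366 with length offsets, 407 with voom and 81 without P9, P22 and P24 (144 to 255 when 1 animal was left out). In Camk2a summed animals 688 were called (4.11%), and 1731 by DESeq2 (10.3%), 1141 with length offsets (6.82%), 1948 with voom (11.9%), 1347 without C24 (8.06%), 131 without C3, C18 and C19 (0.783%) and 89 without C16 and C23 (0.53%). Without 1 animal the number ran from 235 to 1347. In PV V1 31 were called, and 113 by DESeq2, 139 with the glial score and 59 with length offsets (20 to 56). In PV S1 122 were called, and 308 by DESeq2, 209 with length offsets and 81 without P9, P22 and P24 (80 to 177). In Camk2a V1 222 were called, and 870 by DESeq2, 100 with the glial score, 441 with length offsets, 351 without C24, 15 without C3, C18 and C19 and 10 without C16 and C23 (28 to 474). In Camk2a S1 641 were called, and 1450 by DESeq2, 990 without the sex term, 425 with the glial score, 1634 without C24, 299 without C3, C18 and C19 and 103 without C16 and C23 (253 to 1634). For the difference of effects 146 were called, and 267 by DESeq2, 222 with the glial score, 268 without C24, 92 without C3, C18 and C19, 74 without P9, P22 and P24 and 54 without P11, C16 and C23. For area 3291 were called in PV, and 5060 without P9, P22 and P24, a choice that by itself widens that difference. For area in Camk2a 56 were called, with 1371 by DESeq2, 385 without the sex term, 3405 without C24, 0 without C3, C18 and C19, 0 without C16 and C23 and 7 with the replicate block.

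Directions reversed only for values near 0: Auts2 in Camk2a was 0.04 in summed animals without C24, and in V1 0.0034 without the sex term and 0.05 without C24. When 1 animal was left out, Auts2 ran from -0.12 to 0.04 in Camk2a summed animals and from -0.09 to 0.07 in Camk2a V1, and Setd2 from -0.0011 to 0.07 in PV summed animals and from -0.07 to 0.01 in PV V1. In PV V1, 11 members were positive, and 21 with length offsets. The class comparisons, with 33 members called in each area, gave between 28 and 34 under the alternatives.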
